A study of Mus musculus with 6 samples.

Results

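Fibrinogen and coagulation factor genes were followed in the yolk sac of Tnrc6a mutant and wild-type mouse embryos. The group holds 10 genes, chosen by name: Fga, Fgb, Fgg, F2, F5, F7, F10, Proc, Serpinc1 and Plg. They were found through the gene symbol of each probe set in the platform annotation, which gave 11 of the 35557 probe sets of the table, since Fga has a pair. The study profiled total RNA of yolk sacs at embryonic day 9.5 on Affymetrix Mouse Gene 1.0 ST arrays, with 1 array per yolk sac. The 3 mutant yolk sacs came from embryos homozygous for a gene-trap allele of Tnrc6a (GW182gt/gt) and the 3 wild-type yolk sacs from littermates. No treatment is given for either genotype, the strain is not named in the labels, and the genotype labels of both carry the word mixed without an explanation. Tnrc6a encodes GW182, the partner of Argonaute through which microRNAs bring about decay and silencing of their target mRNAs. A gene trap is carried in every cell of the embryo, so the comparison asks which mRNAs differ in the whole yolk sac.

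Fibrinogen is a secreted protein built from pairs of an alpha, a beta and a gamma chain, encoded by Fga, Fgb and Fgg. Clotting factors act as a cascade of serine proteases: factor VII starts it together with tissue factor, factor X with its cofactor factor V turns prothrombin into thrombin, and thrombin cuts fibrinogen to fibrin. Antithrombin (Serpinc1) and protein C (Proc) restrain the cascade, and plasmin, made from plasminogen (Plg), dissolves the clot. In the adult these proteins are made mainly by the liver. Before the liver forms, the visceral endoderm of the yolk sac makes many plasma proteins.

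Signals are on a log2 scale as the authors processed them, and array medians lay between 5.19 and 5.22. Tnrc6a checked the labels. It read 7.81, 5.33 and 5.20 in mutants 1 to 3, against 8.40, 7.62 and 8.29 in wild types 1 to 3. The library labelled mutant 1 thus lay above wild type 2, which goes against its label, and each direction given below for the mutants includes it unless stated. The tissue label was checked against visceral endoderm markers. Afp and Ttr, secreted plasma carriers of that epithelium, read 12.56 to 12.68 and 12.65 to 12.71 in the mutants, against 12.59 to 12.65 and 12.65 to 12.71 in wild type. All 26 visceral endoderm marker genes with a value had a probe set above the limit on dim probe sets (4.34). A further probe set of Dab2 lay below it, at a mean of 2.34. The mean of the 3 trophoblast and decidua markers above the limit was highest in wild type 2 and mutant 2. It exceeded its wild-type average by 1.17 in mutant 2 and by 1.33 in wild type 2. The remaining 4 libraries lay between −1.09 and −0.39. In mutant 2 it rested on Prl8a2, at 9.11 against a wild-type mean of 5.04. Prl4a1 (5.14 against 5.37) and Ascl2 (4.46 against 4.79) lay below their wild-type means there. In wild type 2, Prl4a1 (7.13) and Prl8a2 (7.44) lay above theirs and Ascl2 (4.62) below. In bulk tissue, fewer cells of a type and less RNA per cell cannot be told apart.

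Promoters of the fibrinogen genes are shown because the chains make 1 protein, lie side by side on chromosome 3 in the order Fgg, Fga, Fgb, and varied together between arrays. The sequences are the 250 bases before the annotated gene start, 5′ to 3′ on the gene's strand, from RefSeq on GRCm38.p6. Capitals mark matches on either strand to 3 motifs of liver-type factors: GTTAAT (part of the HNF1 site), CAAAGNNCA (a form of the HNF4 site) and TTNNGNAA (a form of the C/EBP site). Matches to the IL-6 response type motif CTGGGA are not in capitals.
Fga, chr3:83025903-83026152, plus strand: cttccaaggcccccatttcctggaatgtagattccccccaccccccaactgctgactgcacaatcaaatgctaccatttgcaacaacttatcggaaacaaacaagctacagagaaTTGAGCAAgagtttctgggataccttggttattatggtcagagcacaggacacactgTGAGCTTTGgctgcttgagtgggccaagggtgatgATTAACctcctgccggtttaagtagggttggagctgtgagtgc
Fgb, chr3:83049864-83050113, minus strand: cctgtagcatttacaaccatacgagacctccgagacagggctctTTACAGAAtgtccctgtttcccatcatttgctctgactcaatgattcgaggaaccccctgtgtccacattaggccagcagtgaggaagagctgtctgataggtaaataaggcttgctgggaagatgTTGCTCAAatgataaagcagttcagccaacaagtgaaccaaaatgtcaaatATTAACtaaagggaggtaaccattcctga
Fgg, chr3:83007474-83007723, plus strand: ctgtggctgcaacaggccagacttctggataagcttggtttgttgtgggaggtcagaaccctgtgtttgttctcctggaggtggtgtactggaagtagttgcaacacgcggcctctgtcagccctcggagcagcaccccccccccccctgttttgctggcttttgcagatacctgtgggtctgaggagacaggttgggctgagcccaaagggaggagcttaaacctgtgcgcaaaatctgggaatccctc

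The HNF1-type letters begin 43 bases before the start of Fga and 29 bases before that of Fgb. They occurred in 2 of the 8 members' windows that the table holds, Fga and Fgb, against 6.43% of all 32851 RefSeq windows of this length. The HNF4-type letters were in Fga and F7 (5.49% of all windows) and the C/EBP-type letters in Fga and Fgb (36.8%). CTGGGA was in all 3 fibrinogen windows and in that of F10, against 27.0% of all windows. TATAAA and CACGTG, searched as well, were in none of the 8 windows (12.4% and 6.02% of all). Each of the matches in capitals stands clear of the others. These are matches of letters, not measured sites.

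No member passed the test between genotypes. All 11 probe sets lay above the limit on dim ones in the mean over the 6 arrays and entered the limma fit of 15252 probe sets with 1 gene symbol, where the lowest adjusted p of any probe set was 0.999. At an adjusted p under 0.05 the fit called 0 probe sets (percent called 0), and at an unadjusted p under 0.05 it called 538 (3.53%), 2.32% higher and 1.21% lower in the mutants. The members' count at that unadjusted limit was 2 of 11 probe sets, Fgg and Serpinc1, both lower in the mutants. The same probe sets were the 2 of 11 whose genotypes did not overlap, which held for 8.55% of all tested probe sets and, for those lower in the mutants, 3.31%. By gene, 5 members had a higher and 5 a lower mean in the mutants, with a median log2 difference of 0.04 against 0.01 over all tested probe sets, of which 52.9% were higher and 47.1% lower.

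**Figure D1:**
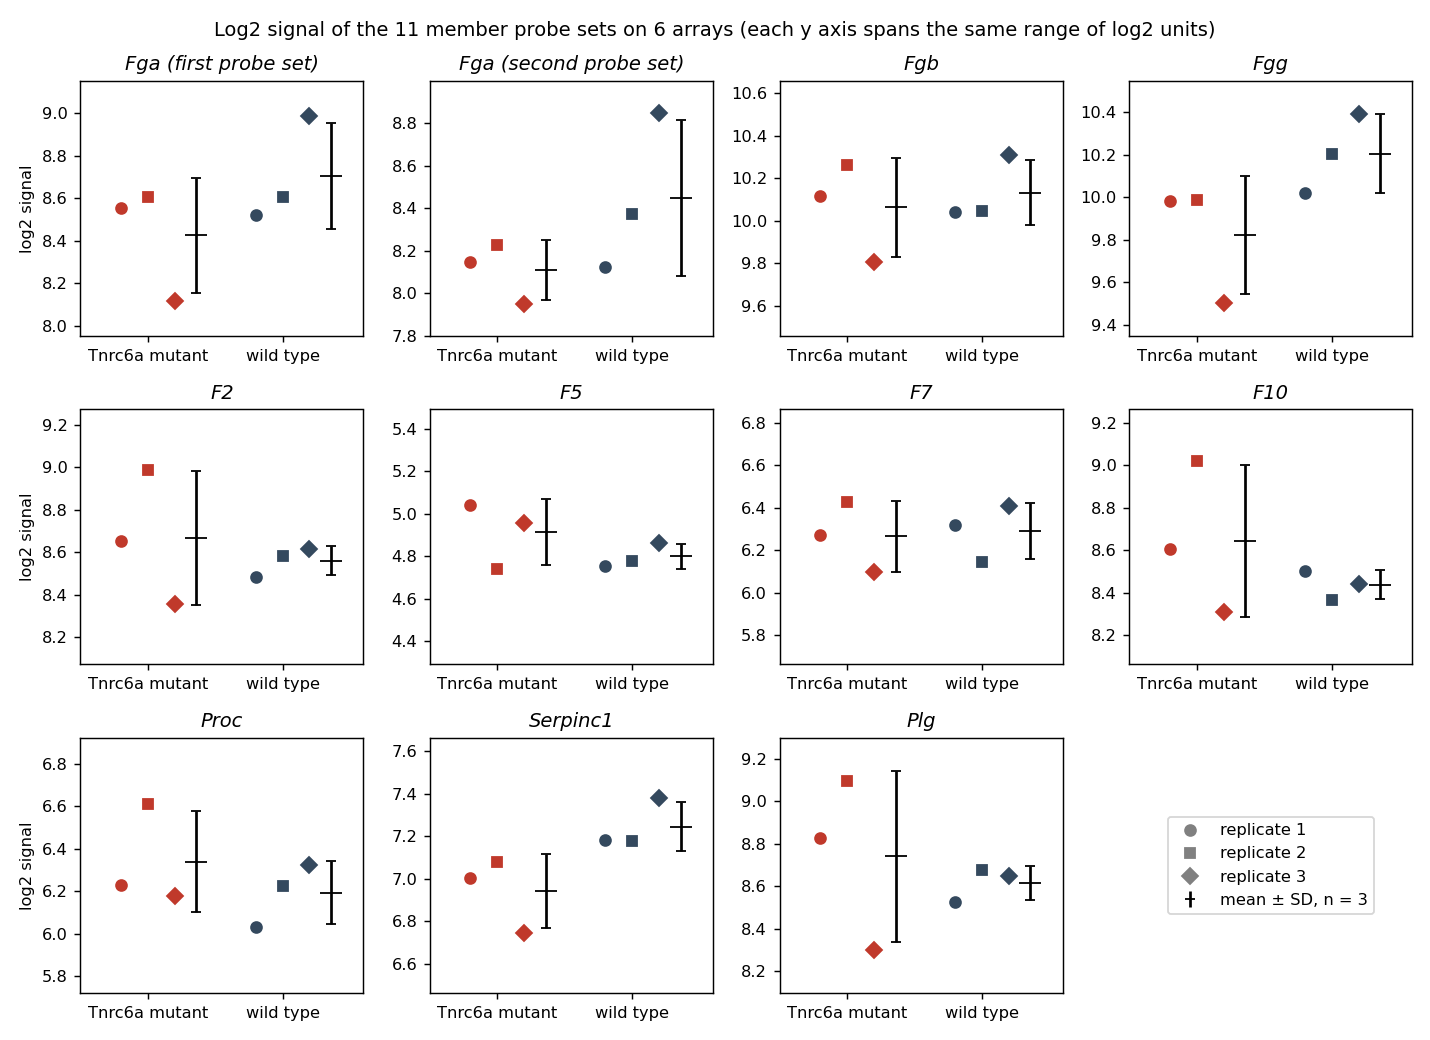
Log2 signal (y axis) of each member probe set in the Tnrc6a mutants (red, left) and wild type (dark blue, right), with a marker shape for each replicate number and the mean ± SD of 3 arrays beside the points. Mutant 3 is the lowest array in 9 of 11 panels, and the genotypes are separate only for Fgg and Serpinc1.

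Of the fibrinogen chains, the gamma chain gene Fgg had the largest difference. Fgg read 9.98, 9.99 and 9.503 in mutants 1 to 3, against 10.02, 10.20 and 10.39 in wild types 1 to 3. The genotypes did not overlap, but the library labelled mutant 1 and mutant 2 lay within 0.05 of wild type 1, and mutant 3 stood well below all. The log2 difference was −0.38 (SE 0.16, 95% interval −0.75 to −0.02), a 1.30-fold lower level in the mutants, with a limma adjusted p of 0.999. Its unadjusted limma p was 0.0429, and the two-sided exact permutation p was 0.1, the smallest that 3 against 3 arrays allow. The difference was −0.22 without mutant 3, −0.29 without wild type 3 and −0.46 without the library labelled mutant 1.

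The alpha chain gene Fga was measured by a pair of probe sets. The first read 8.56, 8.61 and 8.12 in mutants 1 to 3, against 8.52, 8.61 and 8.99 in wild types 1 to 3, a difference of −0.28 (SE 0.17, exact permutation p = 0.5). The second read 8.15, 8.23 and 7.95 in the mutants, against 8.13, 8.37 and 8.85 in wild type, a difference of −0.34 (SE 0.18, exact permutation p = 0.3). In both, wild type 3 was the highest and mutant 3 the lowest, and the remaining 4 arrays were mixed. The difference of the first was −0.12 without mutant 3, −0.14 without wild type 3 and −0.37 without wild type 1. That of the second was −0.26 without mutant 3, −0.14 without wild type 3 and −0.50 without wild type 1.

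The beta chain gene Fgb read 10.12, 10.26 and 9.81 in mutants 1 to 3, against 10.04, 10.05 and 10.31 in wild types 1 to 3. Mutant 2 lay between wild type 2 and wild type 3, and the difference was −0.07 (SE 0.14, 95% interval −0.39 to 0.25, exact permutation p = 0.8). Relative to the wild-type mean, the mean of the 3 chains was −0.15, −0.08 and −0.52 in mutants 1 to 3, against −0.18, −0.06 and 0.23 in wild types 1 to 3. The genotypes overlapped in this mean, and its difference of −0.25 became −0.12 without mutant 3 and −0.14 without wild type 3.

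Contrasts between the chains were also taken within each array. With each chain set relative to its wild-type mean, Fgg minus Fgb was −0.21, −0.35 and −0.38 in mutants 1 to 3, against −0.09, 0.08 and 0.01 in wild types 1 to 3. Fga minus Fgb was −0.21, −0.29 and −0.22 in the mutants, against −0.16, −0.0033 and 0.17 in wild type. Both contrasts were lower in each mutant library than in any wild type, but both subtract the same Fgb values. The share of other gene pairs that separate in this way is not given. Fgg minus Fga overlapped between the genotypes, at −0.00017, −0.06 and −0.16 in the mutants, against 0.07, 0.09 and −0.16 in wild type. These contrasts were picked after the values were seen and are given as descriptions with no test.

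**Figure D2:**
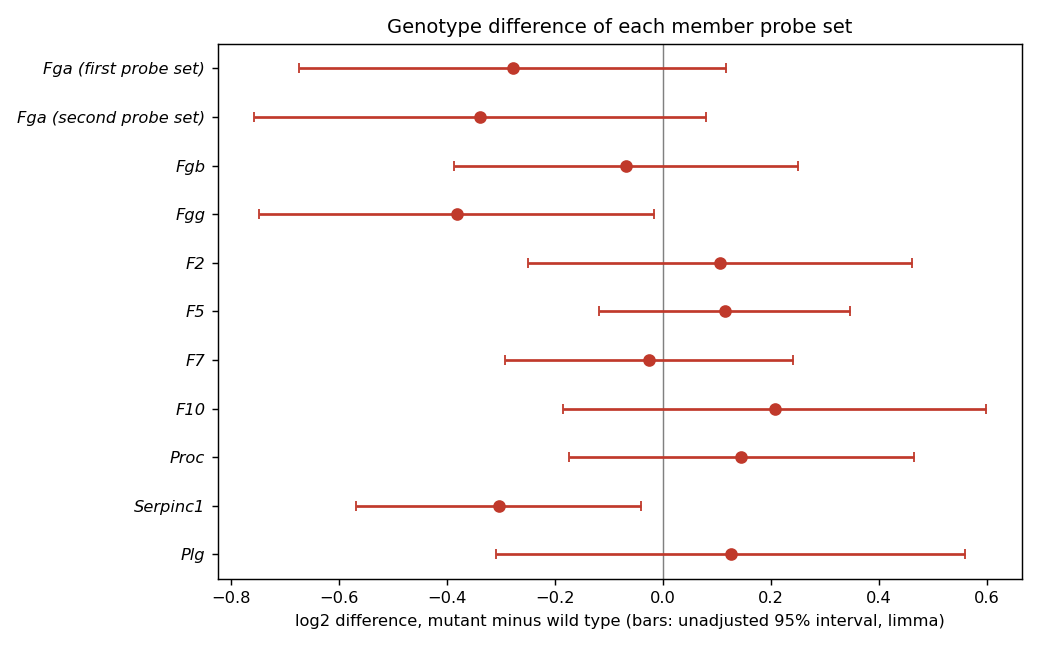
Log2 difference, mutant minus wild type (x axis), of each member probe set (y axis), with points for the limma estimate and bars for the unadjusted 95% interval. The intervals of Fgg (−0.75 to −0.02) and Serpinc1 (−0.57 to −0.04) lie below 0, and those of the other 9 probe sets include it.

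None of the procoagulant factors passed the test, and for F2 and F10 the mutant libraries were spread wider than the wild types. F2, which encodes prothrombin, read 8.66, 8.99 and 8.36 in mutants 1 to 3, against 8.48, 8.58 and 8.61 in wild types 1 to 3. The wild types lay close together, with mutant 2 and the library labelled mutant 1 above and mutant 3 below all of them. The averages were 8.67 ± 0.31 in the mutants and 8.56 ± 0.07 in wild type (SD, n = 3 each), a difference of 0.11 (SE 0.15) that was −0.05 without mutant 2, 0.26 without mutant 3 and 0.07 without wild type 1.

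F10, which encodes factor X, had the same form. It read 8.61, 9.02 and 8.31 in mutants 1 to 3, against 8.50, 8.37 and 8.44 in wild types 1 to 3. Its averages were 8.64 ± 0.36 in the mutants and 8.44 ± 0.07 in wild type (SD, n = 3 each), a difference of 0.21 (SE 0.17), which was 0.02 without mutant 2 and 0.37 without mutant 3. F7, which encodes factor VII and is the neighbour of F10 on chromosome 8, read 6.27, 6.43 and 6.09 in mutants 1 to 3, against 6.32, 6.15 and 6.41 in wild types 1 to 3. Its genotypes overlapped, with a difference of −0.03 (SE 0.11).

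F5, which encodes the cofactor factor V, was the member closest to the limit on dim probe sets. It read 5.04, 4.74 and 4.96 in mutants 1 to 3, against 4.75, 4.78 and 4.87 in wild types 1 to 3. It was the 1 member with mutant 2 as the lowest array and the library labelled mutant 1 as the highest, and the difference was 0.11 (SE 0.10, exact permutation p = 0.4). It was 0.05 without the library labelled mutant 1 and 0.20 without mutant 2.

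Of the anticoagulants, Serpinc1, the gene of the thrombin inhibitor antithrombin, read 7.004, 7.08 and 6.75 in mutants 1 to 3, against 7.18, 7.18 and 7.38 in wild types 1 to 3. Every mutant library lay below every wild type, the library labelled mutant 1 included. The averages were 6.94 ± 0.17 in the mutants and 7.25 ± 0.12 in wild type (SD, n = 3 each). The difference was −0.30 (SE 0.11, 95% interval −0.57 to −0.04), a 1.23-fold lower level, with a limma adjusted p of 0.999. The unadjusted limma p was 0.0293 and the exact permutation p 0.1. The difference was −0.21 without mutant 3, −0.24 without wild type 3 and −0.33 without the library labelled mutant 1.

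Proc, the gene of protein C, which once activated inactivates the factor V and factor VIII cofactors, read 6.23, 6.61 and 6.18 in mutants 1 to 3, against 6.03, 6.23 and 6.32 in wild types 1 to 3. Mutant 2 was above the rest, and the difference was 0.15 (SE 0.14). It was 0.0094 without mutant 2, 0.23 without mutant 3 and 0.06 without wild type 1. Plg, the gene of the fibrin-cutting protease precursor plasminogen, read 8.83, 9.09 and 8.30 in mutants 1 to 3, against 8.52, 8.68 and 8.65 in wild types 1 to 3. Its mutants averaged 8.74 ± 0.40, against 8.62 ± 0.08 in wild type (SD, n = 3 each), for a difference of 0.13 (SE 0.19) that was −0.05 without mutant 2 and 0.34 without mutant 3. It was 0.08 without the library labelled mutant 1 and 0.08 without wild type 1.

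Across arrays the members formed patterns that the genotype labels do not describe. Mutant 3 was the lowest array in 9 of 11 member probe sets, where it was the lowest in 18.0% of all tested probe sets. Mutant 2 and wild type 3 were the highest in 5 probe sets each. In 10 of 11 probe sets the SD was larger in the mutants than in wild type, as it was in 58.2% of all tested probe sets, and the second probe set of Fga was the exception. Visceral endoderm markers moved with these extremes: mutant 3 was the lowest array for 18 of 26 of them and mutant 2 the highest for 16 of 26. The mean of that list relative to wild type was 0.03, 0.14 and −0.13 in mutants 1 to 3, against −0.04 to 0.03 in wild type.

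F2, F10, Plg and Proc lay 0.42 to 0.58 above their wild-type means in mutant 2, more than the endoderm list did there. Fga, Fgg and Serpinc1 lay 0.16 to 0.22 below theirs in the same library. With the mean of the endoderm list subtracted from every probe set on each array, the differences were −0.39 (SE 0.14) for Fgg and −0.31 (SE 0.12) for Serpinc1. The list mean itself differed by only 0.01 between the genotypes, and the subtraction shifts every difference by that amount. That these differences stayed close to those without it was therefore fixed in advance. The mean of the 3 fibrinogen chains minus the endoderm list was −0.18, −0.22 and −0.39 in mutants 1 to 3, against −0.13, −0.08 and 0.22 in wild types 1 to 3. The genotypes did not overlap in it, but the library labelled mutant 1 lay close to wild type 1. This is a description with no test, and the share of all probe sets that separate after this subtraction is not given. Primitive erythroid markers were also low in mutant 2, with a list mean of −0.82, against −0.14 and −0.09 in the other mutant libraries and −0.06 to 0.06 in wild type. Endothelial markers were highest in mutant 3, at 0.50, against 0.05 and 0.23 in the other mutant libraries and −0.12 to 0.18 in wild type. The part of these cell-type markers in the members' values was not tested.

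**Figure D3:**
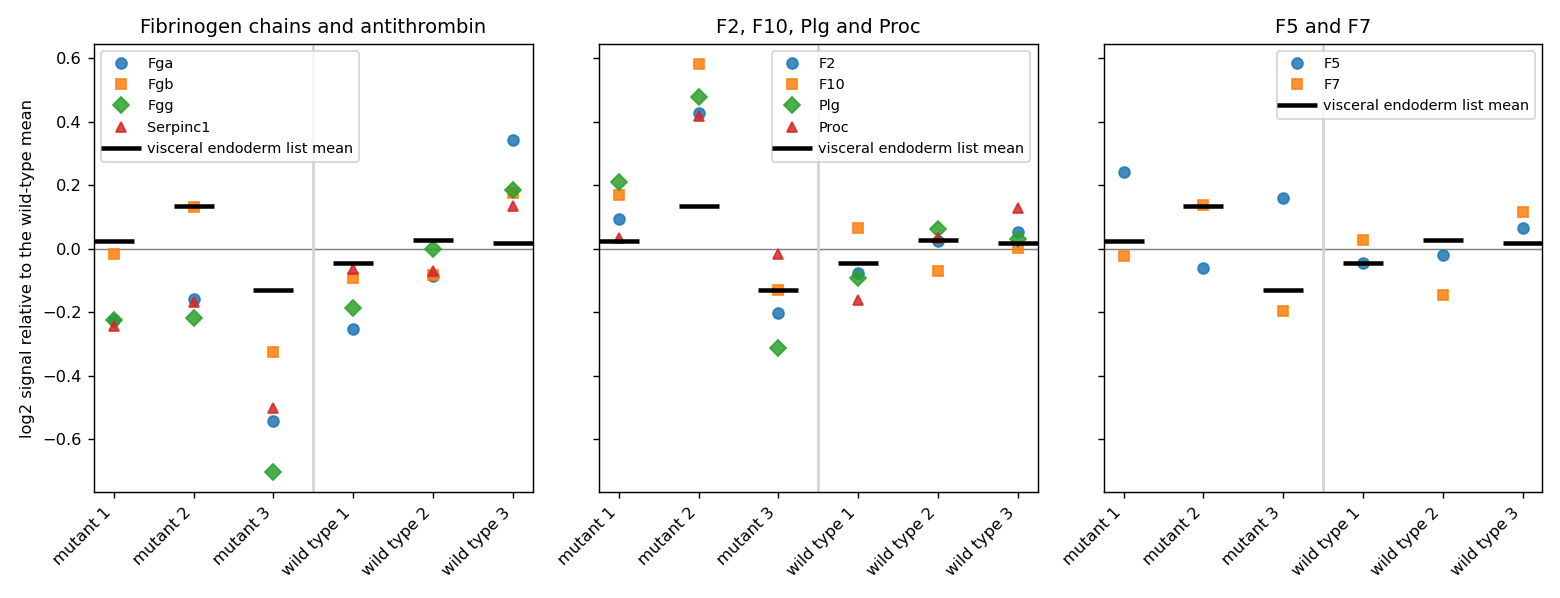
Log2 signal relative to the wild-type mean (y axis) on each array (x axis, mutants left) for 3 sets of members, with a black bar for the mean of the visceral endoderm list. Fga, Fgb, Fgg and Serpinc1 lie below that bar in every mutant library, but also in wild type 1 and wild type 2. For Fgb in mutant 2 the gap is very small. F2, F10, Plg and Proc lie above the bar in mutant 2 and in the library labelled mutant 1. For Proc in the latter the gap is very small. The sets of panels were chosen after the values were seen.

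Correlations over the 6 arrays are given as descriptions, since the points share array, tissue composition and normalization. Fga and Fgg correlated at r = 0.933, Fgb with Fga at 0.836 and Fgb with Fgg at 0.794. Serpinc1 followed Fgg at r = 0.967 and Fga at 0.914. F2 followed Plg at 0.976 and F10 at 0.923, whereas Serpinc1 and F10 correlated at 0.0786. With the genotype means removed, Serpinc1 and F10 correlated at 0.759. F5 was negative with all of the other 9 members over the 6 arrays, at −0.487 to −0.242.

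Other genes of coagulation and fibrinolysis were taken from a list of 44, of which 39 had a probe set with 1 symbol and 29 passed the limit. None of the 29 passed the adjusted test, and 1 was under an unadjusted p of 0.05. By mean, 17 were higher and 12 lower in the mutants, with a median difference of 0.01. Genes below the limit included those of factors IX, XI and XII (F9, F11, F12) and of factor XIII (F13a1, F13b), so no difference was tested for them.

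The gene under the unadjusted limit was S100a10, whose protein with annexin A2 forms a cell-surface receptor for plasminogen and its activator. S100a10 read 11.06, 11.16 and 11.19 in mutants 1 to 3, against 10.87, 11.06 and 10.73 in wild types 1 to 3. The genotypes did not overlap, at a difference of 0.25 (SE 0.10, unadjusted limma p = 0.0432, exact permutation p = 0.1). Proz, which encodes protein Z and follows F10 on chromosome 8, read 7.37, 7.97 and 6.998 in mutants 1 to 3, against 7.10, 7.22 and 7.23 in wild types 1 to 3. Its order of mutant 2 high and mutant 3 low was that of F10, and the difference was 0.26 (SE 0.22). Plau, the urokinase activator of plasminogen, differed by 0.29 (SE 0.19) and was highest in mutant 3, at 7.02.

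The genes with the largest differences of the list had wild type 2 as their highest array. F3, the gene of tissue factor, read 4.80, 5.24 and 5.43 in mutants 1 to 3, against 5.03, 7.22 and 5.17 in wild types 1 to 3. Plat, the tissue plasminogen activator, read 5.96 to 6.08 in the mutants, against 5.81, 8.33 and 5.40 in wild types 1 to 3. Thbd, the thrombin receptor thrombomodulin, read 6.36 to 6.72 in the mutants, against 6.13, 8.52 and 6.26 in wild types 1 to 3. Serping1, an inhibitor of complement and contact proteases, had the same form at 5.37 to 5.97 in the mutants, against 5.62, 6.995 and 5.57 in wild type. Their differences were −0.65 (SE 0.54), −0.48 (SE 0.67), −0.44 (SE 0.57) and −0.32 (SE 0.37), none under an unadjusted p of 0.05. Wild type 2 was the highest array for 12 of the 29 genes, against 12.3% of all tested probe sets and 0 of 11 member probe sets. It was also the library with trophoblast and mesenchyme list means of 1.33 and 0.55, and their part in these values was not tested.

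**Figure D4:**
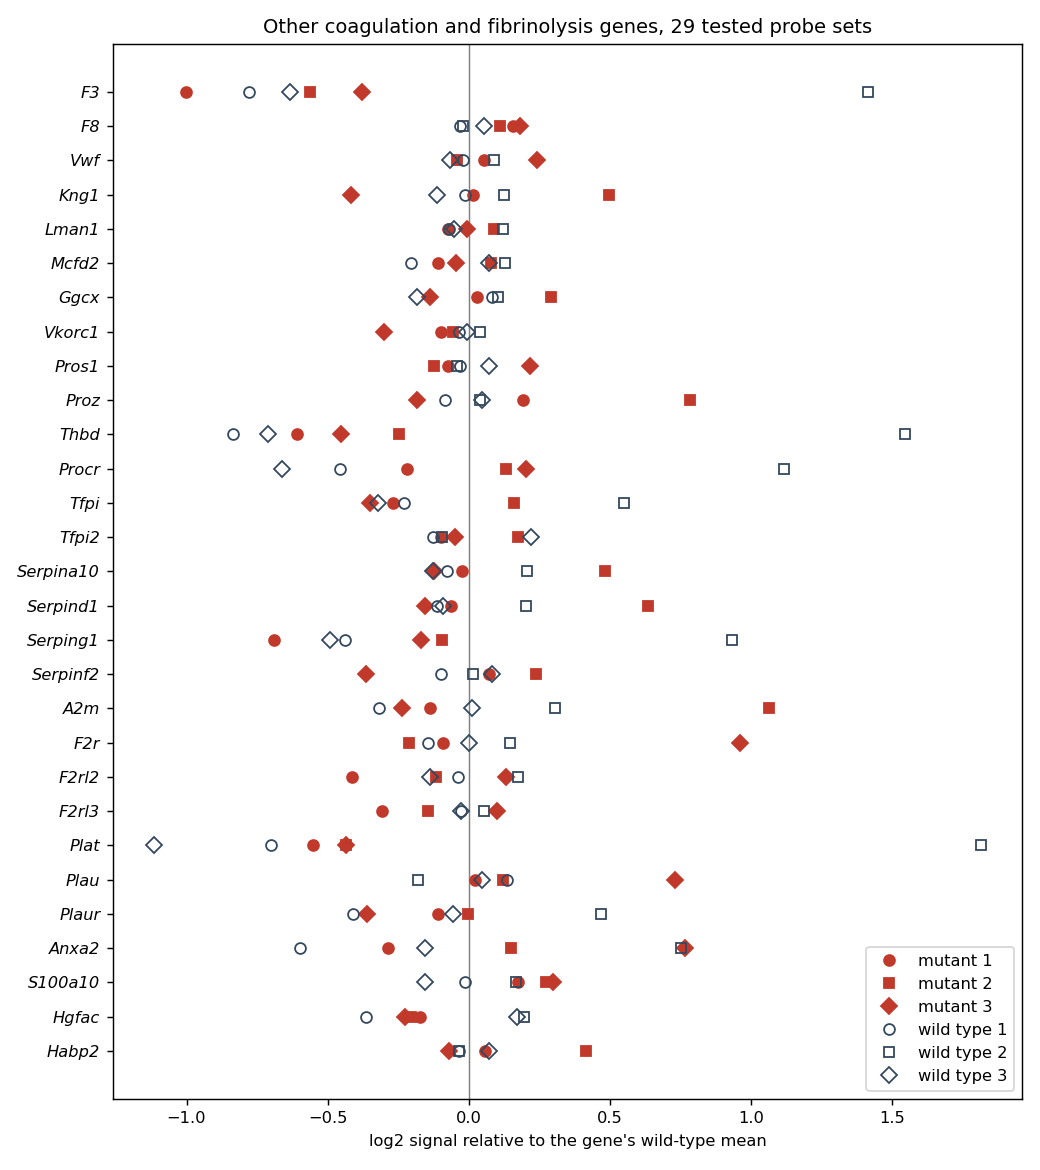
Log2 signal of 29 other coagulation and fibrinolysis genes (y axis) relative to each gene's wild-type mean (x axis), with filled red markers for the mutants and open blue markers for wild type. Wild type 2 (open squares) is far to the right for F3, Thbd, Procr, Serping1 and Plat, and mutant 2 (filled squares) for Kng1, Proz, Serpina10, Serpind1, A2m and Habp2.

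Genes of plasma proteins with mutant 2 as the highest array, picked after the values were seen, included Serpind1, the thrombin inhibitor heparin cofactor II. Serpind1 read 7.82, 8.52 and 7.73 in mutants 1 to 3, against 7.77, 8.09 and 7.79 in wild types 1 to 3. Kng1, the kininogen gene of the contact pathway, read 8.35, 8.83 and 7.92 in the mutants, against 8.32, 8.46 and 8.22 in wild type. Enzymes that vitamin K-dependent factors need gave small differences, at 0.06 (SE 0.13) for the carboxylase gene Ggcx and −0.15 (SE 0.09) for the reductase gene Vkorc1. Vkorc1 did not overlap between the genotypes, at 9.13 to 9.38 in the mutants, against 9.40 to 9.47 in wild type. Nor did F8, the gene of the cofactor factor VIII, at 4.73 to 4.80 in the mutants, against 4.59 to 4.67 in wild type (difference 0.15, SE 0.08). With S100a10 these were the 3 of 29 genes whose genotypes were separate, against 8.55% of all tested probe sets.

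Fibrinogen receptor genes were measured at 8 of 9 above the limit, with 5 higher and 3 lower in the mutants. Itgb3, the beta chain of the platelet and endothelial receptor for fibrinogen, was the 1 gene under an unadjusted p of 0.05. It read 7.06, 6.74 and 7.28 in mutants 1 to 3, against 7.55, 7.35 and 7.43 in wild types 1 to 3, with no overlap, at a difference of −0.42 (SE 0.14, unadjusted limma p = 0.0196, exact permutation p = 0.1). Its partners Itga2b and Itgav differed by −0.04 (SE 0.16) and 0.19 (SE 0.14). The others with the largest differences were Cdh5 at 0.30, Itgb2 at −0.12, Itga5 at 0.10 and Icam1 at 0.09. Platelet markers were lower by mean for 5 of 5 genes, where 47.1% of all tested probe sets were lower. Pf4, a chemokine of platelet granules, differed by −0.57 (SE 0.21, unadjusted limma p = 0.0260, exact permutation p = 0.1). It read 5.61, 5.74 and 5.33 in mutants 1 to 3, against 5.87, 6.61 and 5.92 in wild types 1 to 3, with wild type 2 the highest. Gp5 differed by −0.13 (SE 0.09). Gp9 at −0.07 (SE 0.08), Treml1 at −0.03 (SE 0.10) and Itga2b lay within their SE.

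Factors that drive liver-type plasma protein genes, and components of the IL-6 pathway that raises fibrinogen in the acute phase, showed 0 of 18 genes under an unadjusted p of 0.05. Hnf4a, a nuclear receptor of endoderm and liver, read 9.67, 9.68 and 9.30 in mutants 1 to 3, against 9.48, 9.39 and 9.60 in wild types 1 to 3. Mutant 3 was its lowest array, as for the fibrinogen chains, but the mutant mean lay above that of wild type by 0.06 (SE 0.13). Stat3, the transcription factor of IL-6 signalling, did not overlap between genotypes, at 8.60 to 8.63 in the mutants, against 8.41 to 8.53 in wild type, a difference of 0.15 (SE 0.08). The other large differences of this list were 0.25 for Nr2f2, 0.22 for the co-receptor Il6st, 0.20 for Nr1h4, −0.15 for Gata6 and 0.14 for Foxa1.

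By pattern over the 6 arrays, the genes most like the mean of the 3 fibrinogen chains were Pou5f2, Gpd1, Pomt1, Plekha8, Plk3, Nme3, Bid and Nadsyn1. Their Pearson r was 0.981 to 0.989, and 1 in 20 of all tested probe sets lay above 0.737. The 8 genes are the top of a ranking of all tested probe sets on only 6 arrays. High values arise from that selection, and whether they exceed chance was not tested. Gpd1, a glycerol-3-phosphate dehydrogenase, read 5.58, 5.56 and 5.20 in mutants 1 to 3, against 5.50, 5.58 and 5.90 in wild types 1 to 3. Each of these 8 genes was highest in wild type 3 and lowest in mutant 3, as was the chain mean by which they were picked. The visceral endoderm list correlated with the chains at r = 0.628 and the primitive erythroid list at 0.0912.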

How the data were processed

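Each sample's group came from its title. Per the labels' protocols, RNA of individual yolk sacs was extracted with Trizol and hybridised to the arrays. The values, as deposited, are log2 signals that the authors had already processed, for 35557 probe sets, the scale being read from their range (0.66 to 13.7). Per the submitters' processing notes the tool was MAS5. No label or note gives the normalization or genome build, so its effect on differences between arrays is unknown. Nothing further was normalized. Of the probe sets, 21789 have 1 symbol, 1621 several and 12147 none. Those with 1 symbol and a mean at or above the 30th percentile (4.34) were tested, 15252 in all. Limma 3.58.1 in R 4.3.3 (lmFit, eBayes) compared mutant minus wild type with Benjamini-Hochberg adjustment, with 4 residual and 3.61 prior degrees of freedom. Exact permutation tests over 20 assignments stand beside it. With 3 arrays a genotype, the median SE of a log2 difference was 0.11. The fit was tested on simulated data. No pair of arrays shared more than 122 identical values.

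The members and lists were chosen with earlier results of these data known. All members were named, and in each further list the genes under an unadjusted p of 0.05 and the 6 tested genes with the largest differences. Genes of like pattern were the 8 with the highest r. Other normalizations, filters, variance models, the t-test of the study's design text, a replicate block and leaving out each array were tried.

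The limma p-values set each genotype difference against the spread between individual yolk sacs, with variances moderated over all tested probe sets. Marker lists of macrophages, and of platelets, held 5 of 10 and 5 of 10 genes above the limit. Adgre1, C1qa, C1qb, C1qc and Fcgr1 lay below it, as did Tpbpa, Cts7, Cts8, Prl7d1, Psg17 and Ceacam11 of the trophoblast list. The macrophage list mean was −0.34 to 0.01 in the mutants and −0.13 to 0.07 in wild type, and that of mesenchyme −0.26 to 0.27 in the mutants and −0.31 to 0.55 in wild type.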

Additional observations from a re-analysis of the deposited data

How the results depend on the processing

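Over 17 alternatives the members gave 186 values, of which 178 kept the direction reported and 8 turned, 23 had an unadjusted p under 0.05 and 0 an adjusted p under 0.05 (0.601 to 1.00). F5 gave no value under the 50th percentile filter. F7 and Fgb turned to 0.015 and 0.018 with array weights. Leaving out 1 array, the difference ran from −0.11 to 0.059 for F7, −0.17 to 0.059 for Fgb, −0.054 to 0.26 for F2 and −0.051 to 0.34 for Plg, with F2 and Plg negative without mutant 2 and F7 and Fgb positive without mutant 3 or wild type 3. The mean of the 3 fibrinogen chains ran from −0.34 to −0.12. Fgg had an unadjusted p of 0.0164 to 0.143 and was under 0.05 in 8 of 17 alternatives, and Serpinc1 had 0.0208 to 0.102 and was under 0.05 in 12 of 17. Over all tested probe sets the count at an unadjusted p under 0.05 was 538, and became 274 with centring on visceral endoderm markers, 1014 with array weights and 373 to 1250 without 1 array, the highest without mutant 3. The cause was not tested. The adjusted count stayed at 0 in each of the alternatives fixed at the outset, and by the methods' t-test, which put 587 under its unadjusted threshold. With both wild type 2 and the library labelled mutant 1 left out, an alternative chosen after seeing the data, the counts were 1120 unadjusted and 1 adjusted, that of Tnrc6a (adjusted p = 0.00252), by whose level the library was singled out. The replicate block gave 702 unadjusted and 0 adjusted calls. Same-numbered arrays correlated in their deviations at 0.462, 0.138 and −0.113 for replicates 1 to 3. The highest r of each mutant with a differently numbered wild type was 0.157, −0.0115 and 0.248. These values do not settle whether the numbers are pairs, and the main fit is unpaired. The table holds no signal over background, which limits what can be said of F5, the member closest to the limit on dim probe sets.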
